A study of Mus musculus with 8 samples.

Results

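The genes described here encode the semaphorins, ephrins, Slits and netrins and their receptors, chosen by the start of the gene name on the array: Sema, Plxn, Nrp1, Nrp2, Epha, Ephb, Efna, Efnb, Slit1 to Slit3, Robo, Unc5 and Ntn. This rule found 72 of 34821 gene names, measured by 103 of 55681 probes. Each gene was represented by its brightest probe in Cy3, the dye that carried nerve RNA. To be analysed, a probe had to exceed background clearly in Cy3 on 4 or more of the 8 arrays, which 58 of the 72 genes achieved. The prefix Unc5 also took in Unc50 and Unc5cl, which are not Unc5 netrin receptors and are kept apart below.

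RNA came from sciatic nerves of male mice aged 60 days, 4 of them wild-type and 4 carrying SOD1G93A, a mutant human superoxide dismutase transgene used as a mouse model of amyotrophic lateral sclerosis. Every array also held Cy5-labelled RNA of 1 common reference, pooled from heart, liver and kidney of newborn mice of both genotypes. No dye was swapped, so a dye effect and a difference between nerve and reference cannot be told apart. The reference also differs from the nerve in age. The labels call the 4 samples of a genotype biological replicates. The genotypes occupied separate slide positions (the first position number differs between them and not within them), so an effect of position cannot be told apart from genotype.

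Guidance molecules steer growing axons and also shape vessels and nerve sheaths. Secreted class 3 semaphorins bind neuropilins, which pass the signal on through plexins, while membrane-bound semaphorins of the other classes bind plexins directly. Ephrins and Eph receptor tyrosine kinases are both held at the cell surface and signal on contact. Slits repel through Robo receptors, and netrins attract through Dcc or repel through Unc5 receptors. In the peripheral nerve, guidance molecules are known from axon regrowth and from the sorting of Schwann cells and fibroblasts after injury.

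Each array had 59305 non-control spots, of which 35.5% to 41.7% exceeded background in Cy3 and 48.7% to 51.1% in Cy5. No spot was saturated (0 on every array). The reference direction was checked on marker lists. The median log2 ratio of nerve over reference was 4.50 for 14 myelinating Schwann cell markers, -4.09 for 6 heart markers, -2.14 for 4 measured liver markers and -3.63 for 2 measured kidney markers. Wild-type replicate 1 and SOD1G93A replicate 1 stood apart from the other arrays, at -33.7 and 30.3 on a first principal component that held 36.4% of the variance, with the others between -14.7 and 10.8. For the mouse Sod1 probe the log2 ratio was 0.13 ± 0.20 in wild-type and -0.04 ± 0.09 in SOD1G93A nerve (SD, n = 4 each), and whether it detects the human transgene was not analysed here.

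Values are log2 ratios of Cy3 to Cy5, where 0 is equal signal after dye normalization and 1 is a 2-fold higher nerve signal. The median over all 15341 tested genes was 0.07. The probes that carry the results are shown by the first 30 of their 60 bases as deposited, 5′ to 3′, in lower case throughout. Positions come from the files (mouse build mm9). The files do not say whether a probe lies in coding or untranslated sequence. The first 4 probes below belong to members far above the reference in the semaphorin, netrin and ephrin systems, and the next pair to the members whose genotype groups did not overlap.
Sema3b: tgggtatggggtgaggcaggccaactgtac
Ntng1: gcgaagaaaaccggggcgaaattgcttcga
Plxnb3: aaagtgactgacctgtgaactagggccaca
Ephb6: cacccccaaatcctgctcttccaacagcct
Robo4: tattctcattctaccgccactctgagctta
Sema7a: tcccttatctcttctcaatgcactttaata

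The Sema3b probe lies at chr9:107500686-107500745 on the minus strand and the Ntng1 probe at chr3:109946348-109946407 on the minus strand. The Plxnb3 probe is at chrX:71017572-71017631, plus strand, and the Ephb6 probe at chr6:41570442-41570501, plus strand. Robo4 and Sema7a are measured at chr9:37221547-37221606 and chr9:57810607-57810666, both on the plus strand. For 51 of the 58 tested genes RefSeq gave a strand in assembly GRCm38, and for all 51 of these it was the strand given by the probe's position.

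Guidance genes lay on both sides of the reference, and secreted and membrane semaphorins held some of the members' highest ratios of nerve over reference. Of the 58 tested genes, 12 were at least 2-fold higher in nerve on all 8 arrays, and 7 were at least 2-fold lower. Over all tested genes these shares were 8.96% and 5.81%, against 20.7% and 12.1% of the guidance genes. The filter asked for signal in Cy3 alone, for members and all genes alike. Members above background in Cy5 on all 8 arrays but in Cy3 on 0, such as Robo2 and Epha3, therefore do not enter these counts. The members were above 0 on all arrays for 22 genes (37.9%, against 38.4% of all genes) and below 0 on all arrays for 23 (39.7%, against 31.9%). The median over the 58 genes was 0.09, and over all 72 without the filter it was -0.10. The same reference RNA is shared by all 8 arrays, so these counts describe nerve against this pool and were not tested.

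**Figure D1:**
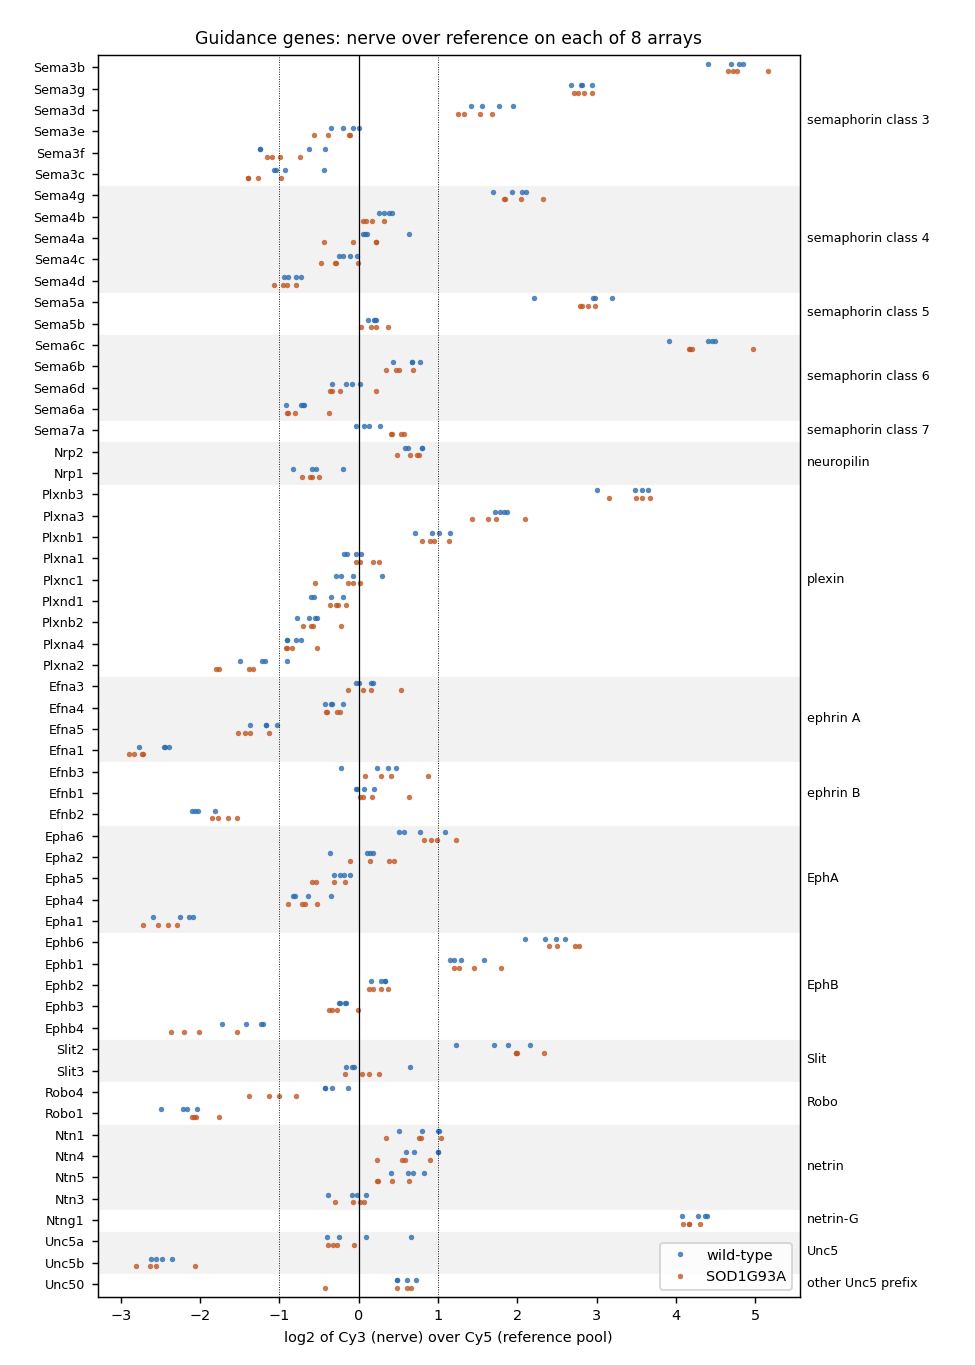
Log2 ratio of nerve (Cy3) over reference (Cy5) for the 58 tested guidance genes, grouped by family and ordered by mean, with 1 point per array (blue wild-type, orange SOD1G93A) and dotted lines at 2-fold. Sema3b, Sema6c and Ntng1 sit above 3.9 on every array, and Efna1, Unc5b and Epha1 below -2.0.

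Among the secreted semaphorins, Sema3b was the highest of all members in nerve over reference, at 4.40, 4.84, 4.79 and 4.70 on the wild-type arrays and 5.15, 4.66, 4.72 and 4.77 on the SOD1G93A arrays. The mean of 4.76 ± 0.21 (SD, n = 8) is a 27.0-fold ratio. The genotypes interleaved, with 1 array of each at the edges. Sema3g, a ligand of neuropilin 2 made by endothelial cells, gave 2.81 ± 0.10 and Sema3d 1.56 ± 0.23 (SD, n = 8). Sema3c was lower in nerve, at -1.07 ± 0.31, and so was Sema3f, at -0.94 ± 0.31, while Sema3e, which binds Plxnd1 without a neuropilin, was nearer to 0 at -0.23 ± 0.19 (SD, n = 8). Sema3e was above background in Cy3 on only 3 wild-type and 2 SOD1G93A arrays. The repellent Sema3a was not tested, since it was well above background in Cy3 on 0 of 8 arrays but in Cy5 on all 8.

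The membrane semaphorins differed as widely within classes. Sema6c, a transmembrane ligand of A-type plexins, measured 3.91, 4.40, 4.45 and 4.49 on wild-type arrays and 4.97, 4.17, 4.21 and 4.17 on SOD1G93A arrays. The lowest and the highest of these 8 values were those of wild-type replicate 1 and SOD1G93A replicate 1. Its relatives Sema6b, Sema6d and Sema6a gave 0.57 ± 0.15, -0.16 ± 0.20 and -0.75 ± 0.18 (SD, n = 8). Sema5a, which carries thrombospondin repeats, gave 2.85 ± 0.29 and Sema5b, above background in Cy3 on 4 of 8 arrays, 0.19 ± 0.10. In class 4, Sema4g was at 1.98 ± 0.20 and the Plxnb1 ligand Sema4d at -0.89 ± 0.11 (SD, n = 8), with Sema4b, Sema4a and Sema4c between -0.21 and 0.25. Sema4f was not tested (0 of 8 arrays above background in Cy3, 8 of 8 in Cy5). Sema7a, the GPI-anchored member that binds Plxnc1 and integrins, was close to the reference at 0.29 ± 0.22.

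Of the semaphorin receptors, Plxnb3 stood highest, at 3.45 ± 0.24 (SD, n = 8), a 10.9-fold ratio, with a range of 3.01 to 3.68 over the 8 arrays. Plxna3 followed at 1.76 ± 0.19 and Plxnb1 at 0.95 ± 0.15. Plxna1 and Plxnc1 lay near 0, at 0.01 ± 0.15 and -0.13 ± 0.25. Plxnd1, Plxnb2, Plxna4 and Plxna2 were lower in nerve, from -0.35 for Plxnd1 to -1.39 for Plxna2. All 9 plexins passed the filter. The neuropilins lay on opposite sides of 0 on every array, Nrp2 at 0.68 ± 0.11 and Nrp1, which is also a co-receptor for vascular endothelial growth factor, at -0.57 ± 0.18 (SD, n = 8).

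Among the ephrins, Efna1, Efna5 and Efnb2 were more than 2-fold below the reference on every array, and the other four lay within 2-fold of it on every array. Efna1 was the lowest of all members, at -2.65 ± 0.19 (SD, n = 8), a 6.29-fold lower signal in nerve. Efna5 gave -1.27 ± 0.17, Efna4 -0.33 ± 0.09 and Efna3 0.11 ± 0.20. Efna4 was above background in Cy3 on only 3 wild-type and 2 SOD1G93A arrays. Efnb2, which marks arteries and binds Ephb4, gave -1.85 ± 0.20, while Efnb1 and Efnb3 gave 0.13 ± 0.22 and 0.31 ± 0.31 (SD, n = 8). Efna2 was above background in Cy3 on 1 of 8 arrays and was not tested.

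Eph receptors spanned a wider range than their ligands. Ephb6, a family member without kinase activity, measured 2.09, 2.34, 2.49 and 2.60 on wild-type and 2.50, 2.78, 2.39 and 2.72 on SOD1G93A arrays. All 8 values were above 2. Ephb1 gave 1.37 ± 0.23, Ephb2 0.26 ± 0.09 and Ephb3 -0.23 ± 0.12. The venous receptor gene Ephb4 was the lowest of the B class at -1.71 ± 0.44 (SD, n = 8). Its other probe gave -0.51 ± 0.20, the lowest of the class too but not 2-fold lower. In the A class, Epha1 gave -2.38 ± 0.23 and was above background in Cy3 on 6 of 8 arrays. Epha4, Epha5 and Epha2 gave -0.68 ± 0.18, -0.31 ± 0.17 and 0.12 ± 0.26. Epha6 was well above background in Cy3 on 6 arrays and in Cy5 on 0. Its mean Cy3 signal over all 8 arrays was 1.73-fold a Cy5 floor. On each array this floor was the dimmest Cy5 signal that counts as above background, or the probe's own Cy5 signal where larger. The fold value is no strict lower bound, since the mean Cy3 signal includes arrays without clear nerve signal. Epha3, Epha7, Epha8 and Epha10 did not pass the filter. In Cy5, 3 of these were above background on all 8 arrays and Epha10 on 1.

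Slit2 was higher in nerve while the Robo receptors were lower. Slit2 measured 1.23, 1.71, 1.88 and 2.16 on wild-type arrays and 2.34, 1.98, 1.98 and 2.00 on SOD1G93A arrays. Slit3 gave 0.08 ± 0.27 (SD, n = 8). Robo1, a Slit receptor of growing axons, gave -2.11 ± 0.20 and was above background in Cy3 on 5 of 8 arrays, and Robo4, the endothelial family member, gave -0.71 ± 0.44. Robo2 was above background in Cy5 on all 8 arrays and in Cy3 on none (0 of 8), and Slit1 likewise. Robo3 was above background on 0 arrays in either dye.

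Netrin-G1 was set apart from the netrins proper. Ntng1, a GPI-anchored protein that does not bind Dcc, measured 4.28, 4.40, 4.37 and 4.08 on wild-type and 4.09, 4.16, 4.31 and 4.17 on SOD1G93A arrays. Its mean of 4.23 ± 0.12 (SD, n = 8), an 18.8-fold ratio, had one of the narrower spreads among the members. Secreted Ntn1 gave 0.78 ± 0.25, the basement membrane netrin Ntn4 0.70 ± 0.26 and Ntn3 -0.09 ± 0.17. Ntn5 was well above background in Cy3 on 4 of 8 arrays and in Cy5 on 0. Its mean Cy3 signal over all 8 was 1.41-fold the Cy5 floor, taken as for Epha6. The fold value is no lower bound, since the mean Cy3 signal includes arrays without clear nerve signal. The netrin receptor gene Unc5b was low in nerve, at -2.51 ± 0.22, a 5.70-fold difference, and Unc5a was at -0.12 ± 0.36 (SD, n = 8). Unc5c was above background in Cy5 on all 8 arrays and in Cy3 on 1, whereas Unc5d, Ntng2 and Unc5cl were above background on 0 arrays in either dye. Unc50, taken in by its prefix alone, gave 0.45 ± 0.37.

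The comparison of genotypes asked whether these genes differ in SOD1G93A nerve at an age that the series title calls presymptomatic. None passed the threshold of an adjusted p under 0.05 in the limma fit over all 15341 genes (0 of 58, against 0.163% of all genes, which is 25). Robo4 and Sema7a came nearest and were the only tested members whose groups of 4 did not overlap, 1 lower and 1 higher. Groups did not overlap for 7.97% of all genes (3.66% higher, 4.32% lower), against 3.45% of the members. At an unadjusted p under 0.05 there were 7 members (12.1%), against 11.4% of all genes, so the members' share is close to the background. The difference was above 0 for 24 members and below 0 for 34, with a median of -0.04 against -0.02 over all genes. By role, 14 of the 32 ligands and 10 of the 25 receptors were above 0. All 3 B-type ephrins were above 0 (median 0.20), as were 5 of 9 plexins (median 0.03), against 2 of 6 class 3 semaphorins and 1 of 5 class 4 semaphorins (median -0.12 in each class).

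**Figure D2:**
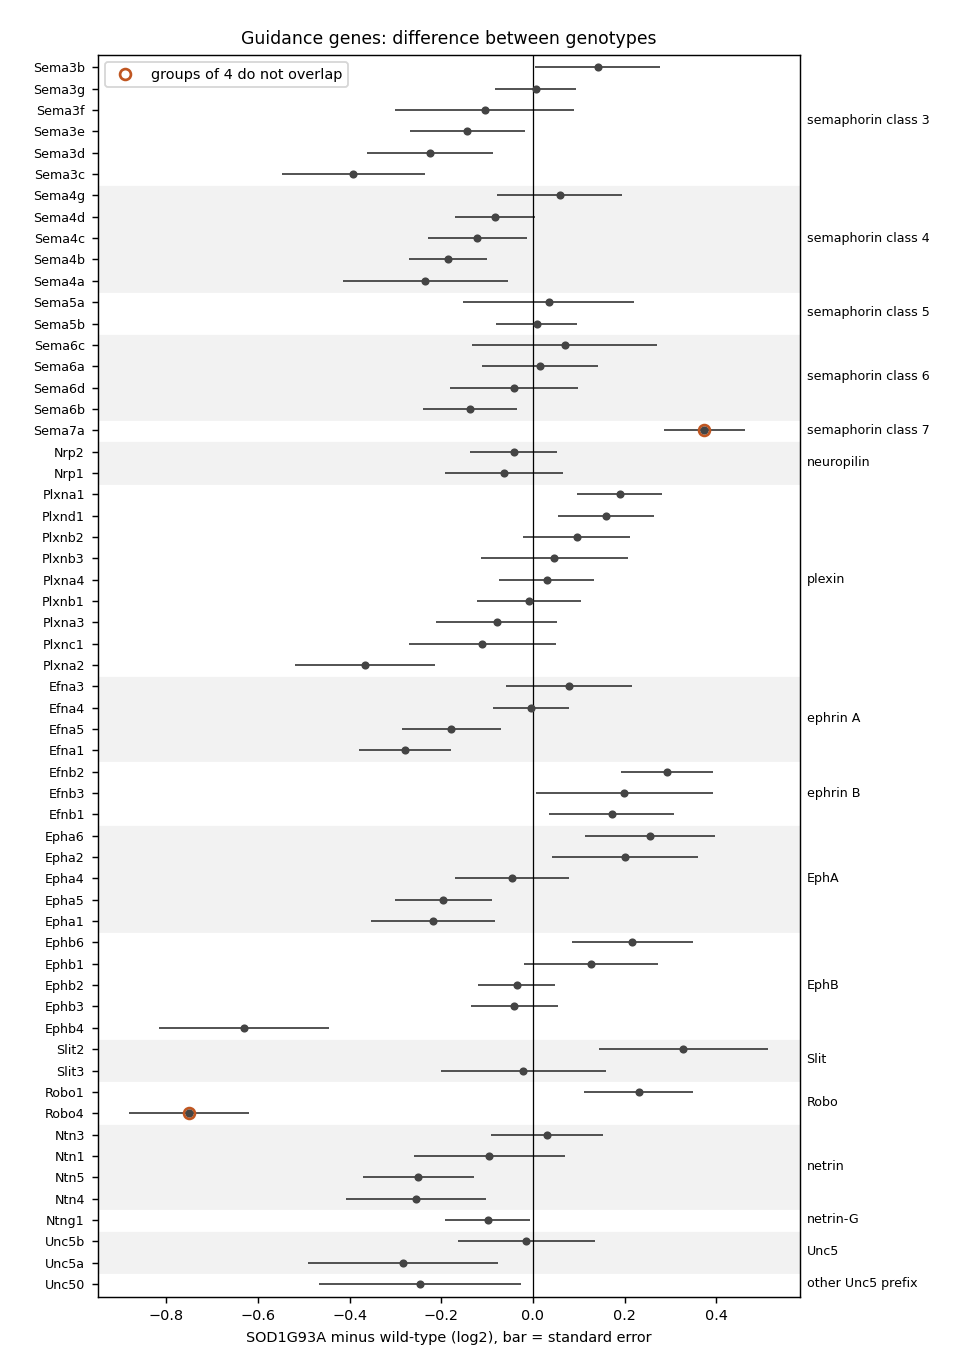
SOD1G93A minus wild-type difference on the log2 scale with its standard error for the 58 tested genes, by family and ordered by size, open rings marking the genes whose groups of 4 arrays do not overlap. Robo4, at -0.75, and Sema7a, at 0.37, are the ringed genes, and no gene passed the adjusted threshold.

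Robo4 encodes the endothelial Robo receptor that stabilises vessels. On the wild-type arrays its log2 ratio was -0.13, -0.33, -0.43 and -0.43, and on the SOD1G93A arrays -0.80, -1.13, -1.01 and -1.39. Every SOD1G93A value was below every wild-type value. The difference was -0.75 ± 0.13 (SE), with an adjusted p of 0.0775. Without SOD1G93A replicate 1 it was -0.84 and passed the threshold (adjusted p = 0.0136), as it did on the 6 arrays numbered 2 to 4 (-0.78, adjusted p = 0.0177) and with array weights (-0.79, adjusted p = 0.0071), where 180, 234 and 431 genes passed in all. Over all alternatives the adjusted p ranged from 0.0071 to 0.785.

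Markers of endothelial cells were mostly lower too, as were those of some other cell types. Of 15 measured endothelial markers (16 listed, none a guidance gene of the rule), 14 were lower and 1 higher in SOD1G93A nerve. The median difference was -0.47. In limma 0 passed the threshold, against 0.163% of all genes, and 9 were at an unadjusted p under 0.05, against 11.4% of all genes. Their mean level per array ran from -0.95 to -0.50 in wild-type and from -1.49 to -0.98 in SOD1G93A nerve, without overlap. The lowest array for the markers and for Robo4 was SOD1G93A replicate 4. Lower values were not particular to this list. Of pericyte and smooth muscle markers 11 of 12 were lower, as were all 9 skeletal muscle and all 9 adipocyte markers, with overlapping group ranges. The part of the endothelial or the other markers in the Robo4 value was not tested. In a whole nerve, fewer cells of a type and less RNA per cell cannot be told apart.

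Sema7a was the member nearest the threshold in the other direction. Its wild-type values were 0.06, -0.03, 0.27 and 0.13, and its SOD1G93A values 0.57, 0.40, 0.42 and 0.53. The groups did not overlap, and the difference was 0.37 ± 0.09 (SE, adjusted p = 0.163). It was 0.33 to 0.47 over the alternatives, in none of which it passed. Its receptor gene Plxnc1 gave -0.08 ± 0.26 in wild-type and -0.19 ± 0.26 in SOD1G93A nerve (SD, n = 4). Markers of non-myelinating and repair Schwann cells had a mean level of 0.17 to 0.46 in wild-type and 0.80 to 0.96 in SOD1G93A nerve, with all 10 measured members higher. Of these 10, 2 passed in limma, against 0.163% of all genes, and 6 were at an unadjusted p under 0.05, against 11.4% of all genes. Gdnf, a growth factor gene, gave 1.22 ± 0.14 (SE, adjusted p = 0.0279). Jun, a transcription factor gene, gave 1.11 ± 0.15 (SE, adjusted p = 0.0390). These are the 2 that passed, and they are named after their values were seen. Higher values were not particular to this list. Of myelinating Schwann cell markers 13 of 14 were higher (median difference 0.11), and of macrophage markers 11 of 13 (median difference 0.47). The group ranges of both these lists overlapped. The part of any of these markers in the Sema7a value was not tested.

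The vessel pair Ephb4 and Efnb2 gave differences of opposite sign, neither past the threshold. Ephb4 measured -1.21, -1.42, -1.24 and -1.73 on wild-type arrays and -2.02, -1.53, -2.21 and -2.36 on SOD1G93A arrays. SOD1G93A replicate 2 lay within the wild-type range. The difference was -0.63 ± 0.19 (SE, adjusted p = 0.250). Efnb2, its ligand, measured -2.02, -1.81, -2.10 and -2.06 in wild-type and -1.85, -1.54, -1.65 and -1.78 in SOD1G93A nerve. Only wild-type replicate 2 reached the SOD1G93A range, and the difference was 0.29 ± 0.10 (SE, adjusted p = 0.318). Of the endothelial markers given beside Robo4, 14 of 15 were lower in SOD1G93A nerve, as Ephb4 was, whereas Efnb2 was higher. The part of these markers in either value was not tested.

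Efna1 measured -2.39, -2.45, -2.44 and -2.77 in wild-type and -2.73, -2.71, -2.83 and -2.89 in SOD1G93A nerve. Wild-type replicate 4 lay among the SOD1G93A arrays, apart from the rest of its group. The difference was -0.28 ± 0.10 (SE, adjusted p = 0.342). Sema3c measured -0.44, -0.93, -1.06 and -1.04 in wild-type and -1.39, -0.98, -1.40 and -1.27 in SOD1G93A nerve, a difference of -0.39 ± 0.16 (SE, adjusted p = 0.382). Without wild-type replicate 1, its highest array, the Sema3c difference was -0.25 (adjusted p = 0.567). Plxna2, a receptor for class 6 semaphorins, gave -0.37 ± 0.15 (SE, adjusted p = 0.409), with overlapping groups.

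**Figure D3:**
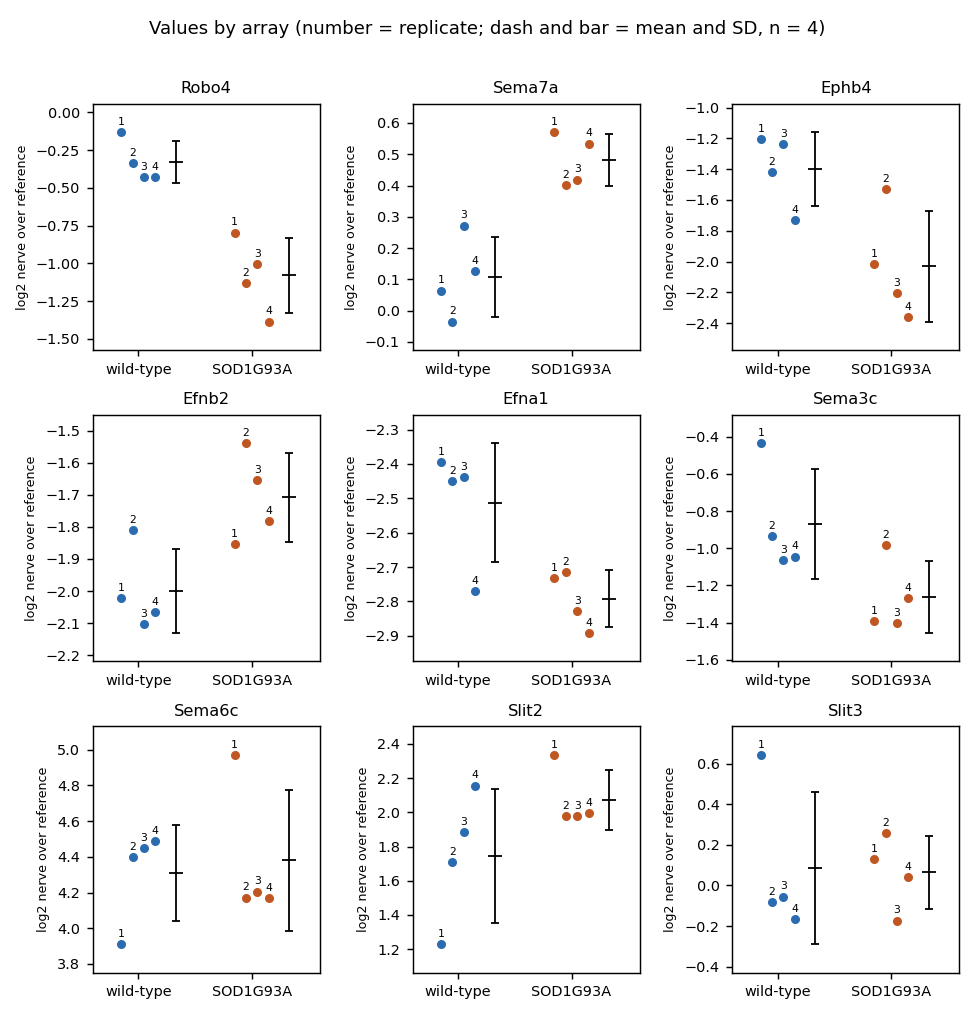
Log2 nerve over reference on each array for 9 guidance genes, points numbered by replicate, with mean and SD (n = 4) beside each group. Robo4 and Sema7a show no overlap between genotypes, while the group extremes of Sema6c and Slit2 are replicate 1 of each genotype.

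In the remaining families the members of smallest p did not pass either. For class 4 these were Sema4b (-0.19 ± 0.09, SE) and Sema4a (-0.23 ± 0.18), and for class 3, after Sema3c, Sema3d (-0.22 ± 0.14). Sema6b gave -0.14 ± 0.10, Sema6c 0.07 ± 0.20, Sema5a 0.03 ± 0.19 and Sema5b 0.01 ± 0.09. Among receptors, Plxna1 gave 0.19 ± 0.09, Nrp1 -0.06 ± 0.13 and Nrp2 -0.04 ± 0.09. Efna5 gave -0.18 ± 0.11 and Efnb1 0.17 ± 0.14. For the Eph receptors the values were 0.22 ± 0.13 for Ephb6, 0.26 ± 0.14 for Epha6, which exceeded background on 2 wild-type and all 4 SOD1G93A arrays, and -0.20 ± 0.11 for Epha5. Slit2 gave 0.33 ± 0.18, Slit3 -0.02 ± 0.18 and Robo1 0.23 ± 0.12, the last above background on 3 arrays of wild-type and 2 of SOD1G93A nerve. In the netrin system Ntn4 gave -0.25 ± 0.15, Ntn5 -0.25 ± 0.12, Ntng1 -0.10 ± 0.09, Unc5a -0.28 ± 0.21 and Unc5b -0.01 ± 0.15. Adjusted p-values of these genes ran from 0.452 for Sema4b to 0.981 for Unc5b. The Ntn5 signal exceeded background on 3 arrays of wild-type nerve and 1 of SOD1G93A nerve, and its difference ran from -1.09 to -0.19 over the alternatives; that of Ntn4 ran from -0.55 to -0.08. Single arrays carried much of several differences. Without SOD1G93A replicate 1, Efnb1 gave 0.03, Ntn4 -0.14, Robo1 0.15 and Sema4a -0.09. Without wild-type replicate 1, Slit2 gave 0.16, Ephb6 0.12, Unc5a -0.07 and Sema4a -0.10. Without wild-type replicate 2, Robo1 gave 0.14 and, without wild-type replicate 3, Sema3d gave -0.13.

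Spread within a genotype was uneven and followed the arrays that stood apart. Slit3 measured 0.64 on wild-type replicate 1 and -0.08, -0.05 and -0.17 on the other wild-type arrays. Unc5a had its highest value, 0.66, on the same array, against 0.09, -0.25 and -0.40. Sema5a, Sema6c and Slit2 had their lowest value of all 8 arrays there. That array also had the highest mean of skeletal muscle markers, 2.77 against -0.94 to 1.87 on the other wild-type arrays, and the lowest of myelinating Schwann cell markers, 4.08 against 4.35 to 4.52. SOD1G93A replicate 1, where Sema6c and Slit2 were highest, had the highest mean of myelinating Schwann cell markers, 4.80. It was also the dimmest array, with a median raw Cy3 signal of 378 over kept probes, against 536 to 736 on the others. The part of these markers and of the signal level in the values was not tested. In SOD1G93A nerve all 9 measured skeletal muscle markers, all 9 adipocyte markers and 11 of 12 pericyte and smooth muscle markers were lower. None passed the threshold (0 called in limma, against 0.163% of all genes), and their group ranges overlapped. At an unadjusted p under 0.05 there were 5, 3 and 5, against 11.4% of all genes. Macrophage markers ran from 0.38 to 0.77 in wild-type and from 0.39 to 1.44 in SOD1G93A nerve.

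**Figure D4:**
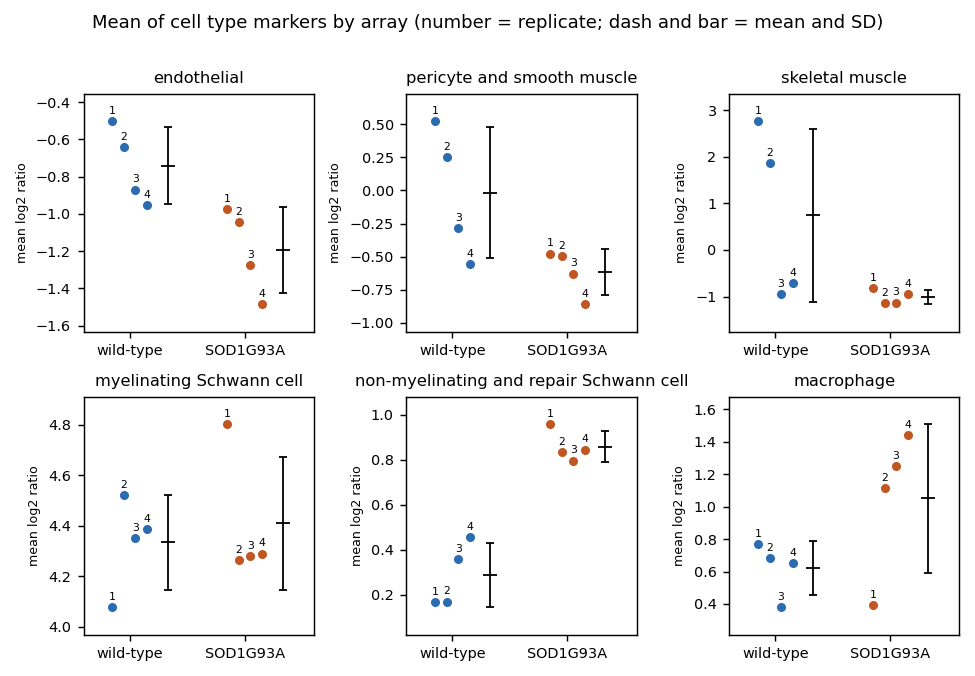
Mean log2 ratio of 6 cell type marker lists on each array, points numbered by replicate, with mean and SD (n = 4). Endothelial and repair Schwann cell lists show no overlap between genotypes, and the skeletal muscle list is high on wild-type replicates 1 and 2 only.

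Of the 58 genes, 11 had more than 1 probe above background, 23 probes in all, and these did not always give the same picture. Both Ephb4 probes are shown because their genotype differences were unlike in size, -0.63 ± 0.19 for the brighter and -0.16 ± 0.13 (SE) for the other. The brighter lies at chr5:137815646-137815705 and the other at chr5:137813703-137813762, both on the plus strand. The Sema3c probes gave -0.39 ± 0.16 and -0.11 ± 0.13 and lie at chr5:17235981-17236040 and chr5:17234078-17234137, plus strand. The Epha5 probes gave opposite signs, -0.20 ± 0.11 and 0.17 ± 0.13, and lie at chr5:84487348-84487407 and chr5:84483837-84483896, minus strand. The second of these was above background on only 5 of 8 arrays in Cy3 and 3 of 8 in Cy5. The Ephb6 probes also gave opposite signs, 0.22 ± 0.13 and -0.13 ± 0.09. None of these 8 differences passed the adjusted threshold.
Ephb4, brighter probe: gtcaacagaggcagacaacggtgcttggaa
Ephb4, other probe: atacgaggaaagttttgcagcggctggatt
Sema3c, brighter probe: ccctgtgtagagaaagcaaactagatgtag
Sema3c, other probe: acgtaaagtcaagagtgactcataaagagc
Epha5, brighter probe: aatatatgcaggaactgacttacatcgaaa
Epha5, other probe: gttcccatctgcatttgtttgtgctttcag

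Nerve over reference also depended on the probe. Ntng1 gave 4.23 ± 0.12 on its brightest probe and 3.18 ± 0.15 (SD, n = 8) on the next. Its remaining probe was above background on 4 of 8 Cy3 arrays and 0 of 8 Cy5 arrays, so it gives no ratio to set beside these. Sema6c gave 4.34 ± 0.32 and 2.13 ± 0.14, Sema3g 2.81 ± 0.10 and 1.52 ± 0.35, and Nrp2 0.68 ± 0.11 and 1.42 ± 0.20. Ephb4 gave -1.71 ± 0.44 and -0.51 ± 0.20, so its 2-fold lower signal rests on the brighter probe. The dimmer Ephb6 probe was above background on 0 of 8 Cy5 arrays and likewise gives no ratio to compare. Sema6d and Epha5 were below 0 on the brighter probe and above 0 on the other, at -0.16 and 0.67 for Sema6d and at -0.31 and 0.43 for Epha5. The other Epha5 probe was above background on only 5 of 8 arrays in Cy3 and 3 of 8 in Cy5, so its ratio lies near the floor. The probes of Ntn1 gave 0.78 ± 0.25 and 0.94 ± 0.24, and those of Plxnd1 -0.35 ± 0.16 and -0.52 ± 0.26, differences within the larger SD.

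**Figure D5:**
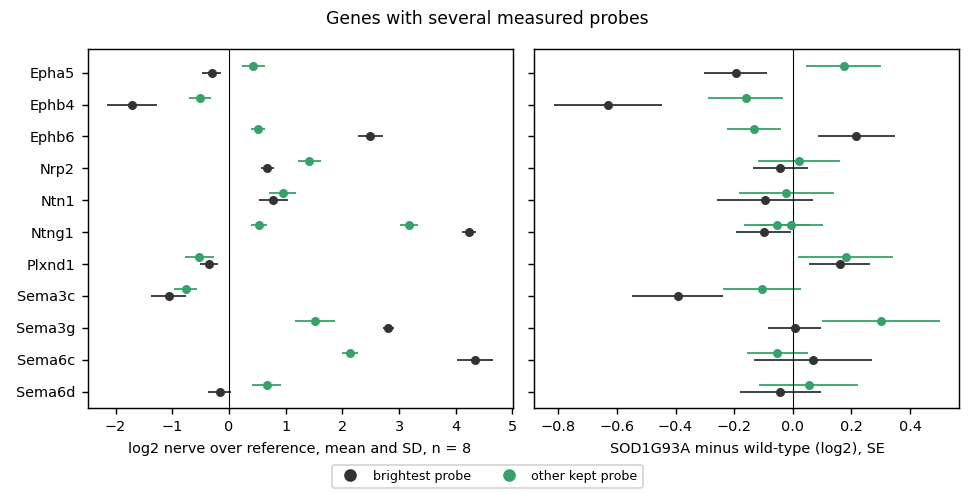
The 11 guidance genes with several probes above background: left, log2 nerve over reference (mean and SD over 8 arrays), and right, SOD1G93A minus wild-type (difference and SE), for the brightest probe in black and the others in green. Sema6c, Sema3g and Ephb4 show large gaps between probes in the ratio, and Ephb4 in the difference; the green points of Ephb6 and the lower green point of Ntng1 have no reference signal above background, so their ratios have no fixed size.

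Partners that act with these receptors were taken from a list of 57 co-receptors, adaptors and cytoskeletal effectors, of which 50 were measured. None passed the threshold (0 called in limma, against 0.163% of all genes), and 6 were at an unadjusted p under 0.05, against 11.4% of all genes. Of their differences, 28 were above 0 and 22 below, with a median of 0.02. Those of smallest p were Rras, the small GTPase that plexins switch off, at -0.60 ± 0.14 (SE, adjusted p = 0.146), the actin-binding Ablim3 at -0.42 ± 0.14 and the Slit-Robo GTPase activator Srgap2 at -0.20 ± 0.08. Groups did not overlap for Rras, Srgap2 and the tyrosine kinase gene Abl1 (-0.28 ± 0.11, SE), against 7.97% of all genes. Abl1 is named after its values were seen.

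The netrin receptor gene Dcc was looked at after its values were seen, because 1 array decided its call. It measured -0.89, -0.75, -0.61 and -0.54 in wild-type nerve and 0.03, -1.57, -1.63 and -1.95 in SOD1G93A nerve. SOD1G93A replicate 1 was above all wild-type arrays and the other SOD1G93A arrays below them. The difference was -0.58 ± 0.37 (SE, adjusted p = 0.577) on 8 arrays, -1.02 ± 0.12 (SE, adjusted p = 0.0084) without that array and -1.08 (adjusted p = 0.0079) on the 6 arrays numbered 2 to 4. In limma 25, 180 and 234 genes passed in all in these settings. The 6 arrays also lack SOD1G93A replicate 1, so the last 2 values are not independent. Neo1, the other receptor of the Dcc family, gave 0.14 ± 0.11.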

How the data were processed

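The authors deposited 1 Agilent scanner file per array, holding linear intensity values of each spot in Cy3 and Cy5, made with Feature Extraction 11.5.1.1 per the file headers. A different version, 11.0.1.1, and limma without a role stand in the submitters' processing notes. The values of the series matrix, as deposited, are log10 ratios (Cy5 to Cy3) and equal those in the scanner files (largest difference 0), with a median of 0 in each column and 33.3% of all values exactly 0. Deposited flags and other values carry no scale.

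Here, mean intensities were background-corrected by normexp with offset 50 and loess-normalized within arrays, with control spots given no weight and flagged outlier spots left out. The ratio was turned to Cy3 over Cy5. Of 55681 probes, 19836 were kept, giving 15341 genes by brightest probe. Probe accessions of 56 of the 58 tested members matched RefSeq, with no symbol changed. limma 3.58.1 (lmFit, eBayes) in R 4.3.3 compared genotypes over all genes, 2-sided, with Benjamini-Hochberg adjustment, and gave every adjusted p in the text. The procedure was tested on simulated data. The number of arrays limits the precision, and an offset of 50 shrinks ratios of dim spots. For Epha6 and Ntn5 the fold value sets the mean nerve signal of all 8 arrays against a mean Cy5 floor. Per array, the floor was the larger of the lowest Cy5 signal well above background and the probe's own Cy5 signal. The fold value was taken per channel after loess and Aquantile, and is open to dye bias.

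Named members were those called, those whose groups did not overlap, the 2 of smallest p per family, and the 3 highest and lowest over the reference in each system. Of the partners, the 3 of smallest p were named; ratios of other members are given as description. The members, lists and alternatives were chosen with earlier results of these data known.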

Additional observations from a re-analysis of the deposited data

Results flagged for a closer look

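In groups of 4 arrays, 9 of 116 groups of guidance gene values held 1 array far from the other three, and chance gives about 1 in 20. Of these, 3 lay on wild-type replicate 1 and 4 on SOD1G93A replicate 1, the arrays that stood apart over all genes. On wild-type replicate 1, Sema6c was low at 3.91 (others 4.40 to 4.49), Sema4a was high at 0.63 (others 0.05 to 0.11) and Slit3 was high at 0.64 (others -0.17 to -0.05). On SOD1G93A replicate 1, Sema6c was high at 4.97 (others 4.17 to 4.21), Slit2 was high at 2.34 (others 1.98 to 2.00), Robo1 was high at -1.76 (others -2.10 to -2.05) and Unc50 was low at -0.43 (others 0.48 to 0.66). The others were Epha2 on wild-type replicate 2, at -0.37 (others 0.11 to 0.18), and Efna1 on wild-type replicate 4, at -2.77 (others -2.45 to -2.39).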

How the results depend on the processing

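The count of genes called over all 15341 was 25 and was the least stable value: 7 from the processed signals of the scanner and from the series table, which hold the same ratios, 1 with median centring, 16 without a filter, 431 with array weights, 234 on the 6 arrays numbered 2 to 4, and 3 to 180 with 1 array left out. The replicate block gave 1. Same-numbered arrays of the genotypes did not deviate together (r from -0.16 to 0.10). The labels do not say whether the numbers pair samples, and correlations over so few arrays cannot decide it. The block changed no member's call. Guidance members called were 0, and 1 (Robo4) with array weights, on the 6 arrays and without SOD1G93A replicate 1 (range 0 to 1 over arrays left out). For partners the count was 1 (Dcc) in the same settings (range 0 to 1). Members at an unadjusted p under 0.05 numbered 2 with median centring and 5 to 11 with 1 array left out, the 11 being without wild-type replicate 4. The median ratio of members over the reference was -0.10 without a filter, where all 72 enter, 0.0267 on the 6 arrays and 0.0288 to 0.11 with 1 array left out.

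Counted over named genes and settings together, 683 differences kept direction and side of the threshold, 3 (all Robo4) passed it and 35 changed sign. Aquantile, the changed filters, the replicate block and eBayes with trend left the Robo4 and Sema7a differences as they were. The series table repeats the processed signals. The 683 therefore include repeats and is no measure of stability. Those that changed sign from the processed signals and the series table were Slit3 0.0233, Ntng1 0.0067 and Sema5b -0.0912. With scale normalization Unc5b was 0.0157. In the Cy3 channel alone they were Slit3 0.0961, Unc5b 0.0369, Sema6b 0.11 and Sema5a -0.0122. With array weights they were Slit3 0.0372, Sema6c -0.18, Nrp2 0.0291 and Sema5a -0.0605. On the 6 arrays they were Sema4a 0.0441, Slit3 0.14, Sema6c -0.26, Nrp1 0.0463, Nrp2 0.0495 and Sema5a -0.15. With 1 array left out, Slit3 ran from -0.10 to 0.17, Unc5b from -0.16 to 0.0819, Sema6c from -0.13 to 0.14, Nrp1 from -0.16 to 0.0515, Nrp2 from -0.0812 to 0.0152, Sema5a from -0.17 to 0.15 and Sema5b from -0.0517 to 0.0634. The cause was not tested.

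Over the reference, 12 to 15 members were 2-fold higher and 5 to 10 lower on all arrays. From the processed signals of the scanner, which differ in background correction, dye normalization and offset together, Plxnb3 was 4.53, Ntn4 2.15 and Robo1 -3.28 over the reference. Which of these steps moved them was not tested. Over all alternatives, Ntng1 ran from 2.65 to 5.23, Sema6c from 3.24 to 4.71 and Epha6 from 0.81 to 3.87 over the reference. The size of these ratios therefore depends on the processing.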
